A study of Mus musculus with 11 samples.

Results

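Ttr, Igf2, Folr1, Kl, Clic6 and Igfbp2 are 6 genes grouped as choroid plexus and meningeal genes that were thought to show carry-over of tissue in single libraries. They were chosen by symbol with their counts in these libraries already known, so their own levels and differences are given here as a description, with no test. All 6 were found among the 32531 genes counted in each of the 11 libraries. All animals were adult mice with the Glt25d2-TRAP DU9 transgene, in which regulatory DNA of Glt25d2 (now Colgalt2) drives ribosomal protein Rpl10a fused to EGFP. Antibodies against EGFP then pull ribosomes of the tagged neurons out of a tissue lysate together with their RNA (translating ribosome affinity purification, TRAP). The groups were 3 immunopurified (IP) libraries from cocaine self-administration, 3 IP libraries from yoked controls and 3 IP libraries from saline self-administration, with 1 unbound library (RNA left after the pull-down) from the cocaine group and 1 input library (RNA before it) from the saline group. Cerebral cortex is the labelled tissue, but whole striatum is what the extraction protocol describes. The sources used here do not give the treatment of the yoked mice, their sex or exact age, or whether a library is 1 animal or a pool.

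The choroid plexus is a sheet of secretory epithelium around a vascular core in the brain ventricles, and it makes cerebrospinal fluid. Its epithelium secretes transthyretin, the product of Ttr and a carrier of thyroid hormone and of retinol-binding protein, and takes up folate through folate receptor alpha, the product of Folr1. Kl encodes klotho, a co-receptor for the hormone FGF23, and Clic6 encodes a member of the chloride intracellular channel family. Igf2 encodes a growth factor of the insulin family, made in the adult brain mainly by choroid plexus and meninges, and Igfbp2 a protein that binds insulin-like growth factors.

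Libraries held 20926712 to 53862653 counts in genes, with 18695 to 20383 genes detected, and 3 counts corresponded to 0.0557 to 0.143 CPM (counts scaled to a common library size). Levels of the 6 genes are CPM scaled by the trimmed mean of M values (TMM) over the 11 libraries, and levels of list genes beside a fitted difference are scaled over the 9 IP libraries. Libraries numbered 1 stood apart from those numbered 2 and 3 in all 3 treatments. The 8 layer 5 marker genes had a summed level of 1155 to 1334 CPM in the 3 IP libraries numbered 1, against 584 to 789 CPM in the other 6. The input had 626 CPM and the unbound library 622 CPM, inside the range of those 6. All 8 genes were higher past the threshold in libraries numbered 1, beside 27.6% of all genes. Same-numbered libraries shared an index sequence, while each treatment's IP libraries shared a lane code of their own, so lane and treatment cannot be told apart. In bulk RNA such as this, fewer cells of a type and less RNA per cell cannot be told apart either. The 10 striatal projection neuron genes summed to 359 to 431 CPM in the IP libraries numbered 1 and to 558 to 670 CPM in the other 6. The input had 594 CPM and the unbound library 617 CPM. The unbound library also stood apart, with 62 of 13693 genes (0.453%) at 1 CPM or more and at least 4-fold above every IP library. The transcript AK140265 alone reached 80437 CPM there.

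Ttr (chromosome 18, 20665280 to 20674321, plus strand, mm10) had 3 to 46 counts in 8 of the 9 IP libraries and 804 in the other. Its counts were 9, 46 and 37 in cocaine IP 1, 2 and 3. In yoked IP 1, 2 and 3 they were 5, 28 and 3. In saline IP 1, 2 and 3 they were 5, 804 and 3. The unbound library had 631 counts and the input 39. Saline IP 2 was the only IP library above 46 counts, and the other saline IP libraries were among the lowest of all. In CPM, Ttr stood at 0.218, 1.34 and 0.980 in cocaine IP, at 0.132, 0.716 and 0.0906 in yoked IP and at 0.0969, 20.97 and 0.0791 in saline IP, with 30.0 in the unbound library and 0.950 in the input. Saline IP 2 was 15.6-fold above the next IP library and 96.0-fold above the IP median. That library held 85.5% of the 940 Ttr counts of the 9 IP libraries and 10.7% of their gene counts. The share of counts in saline IP 2 was 5.56% for Folr1 and 11.5% to 16.1% for the other 4 genes. The high Ttr level in saline IP 2 was thus not shared by the other 5 genes, although Kl, at 2.87 CPM there, was level with its next highest IP library.

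**Figure D1:**
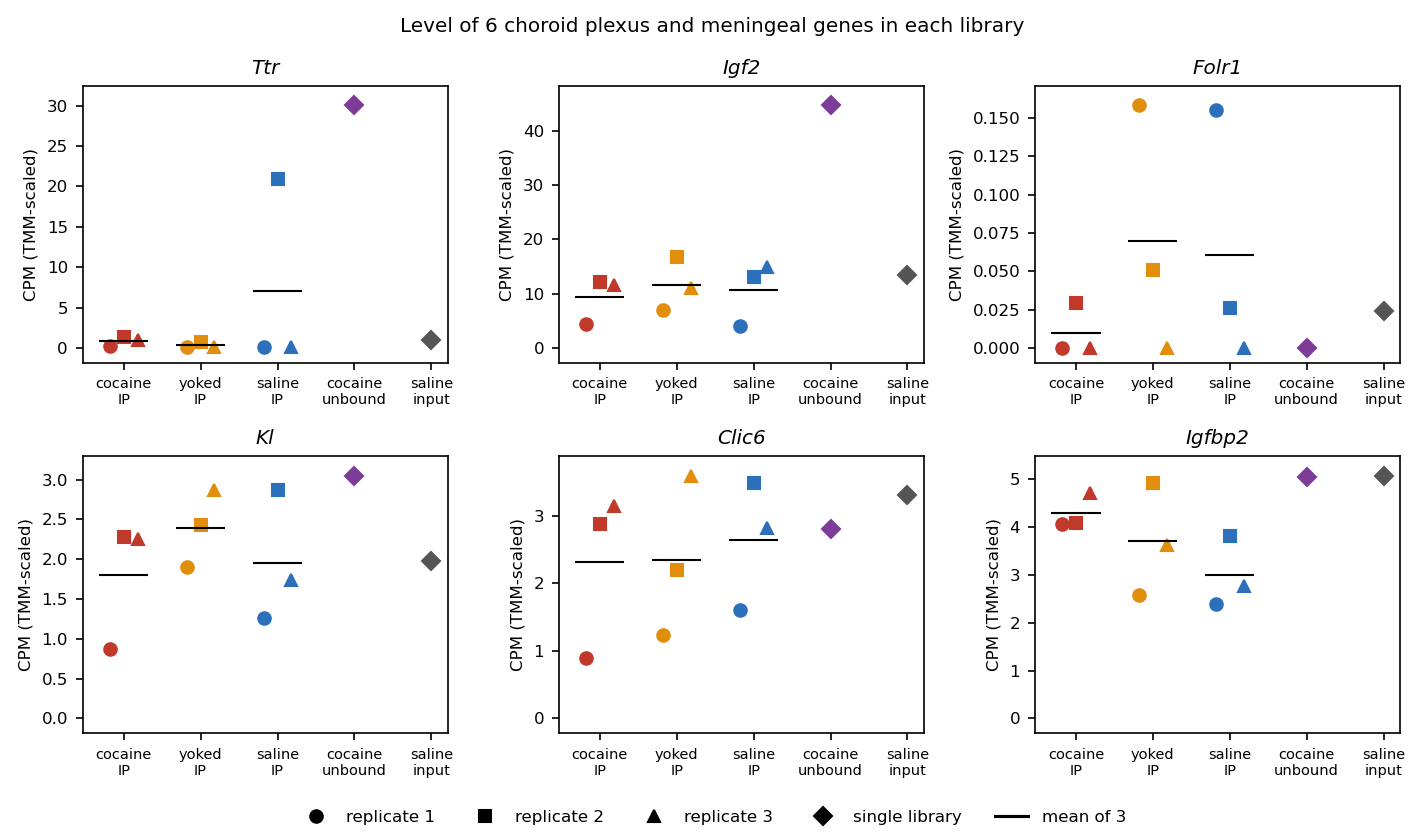
Level of each of the 6 genes in every library, in TMM-scaled CPM, with a separate axis per gene. Points are single libraries, shaped by replicate number, and bars are means of 3. Ttr stands at 20.97 CPM in saline IP 2 and 30.0 CPM in the unbound library and at 1.34 CPM or less elsewhere, Igf2 is lowest in the 3 libraries numbered 1, and Folr1 is at 0.158 CPM or less throughout.

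Igf2 (chromosome 7, 142650766 to 142666816, minus strand) was present in every library. Its counts were 180, 416 and 436 in cocaine IP 1, 2 and 3, 268, 657 and 363 in yoked IP, and 207, 505 and 566 in saline IP, with 939 in the unbound library and 549 in the input. The corresponding levels were 4.37, 12.1 and 11.5 CPM in cocaine IP, 7.06, 16.8 and 10.96 CPM in yoked IP and 4.01, 13.2 and 14.9 CPM in saline IP. The unbound library had 44.7 CPM and the input 13.4 CPM. In each treatment the library numbered 1 was the lowest, and the treatments covered nearly the same range. Igf2 overlaps the antisense gene Igf2os, which had 0 to 11 counts per library, and the miRNA gene Mir483, which had 0. It also overlaps the readthrough gene model Gm49394, which has no row in these files.

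Folr1 (chromosome 7, 101858331 to 101870788, minus strand) was at the limit of detection. It had 0, 1 and 0 counts in cocaine IP, 6, 2 and 0 in yoked IP, 8, 1 and 0 in saline IP, 0 in the unbound library and 1 in the input. These 19 counts in all are too few for any fold, and the gene did not pass the expression filter of the fit. Saline IP 2 and the unbound library, the pair with high Ttr, held 1 and 0 of them. Folr1 overlaps Anapc15 on the opposite strand, which had 261 to 556 counts per library, and the strand setting of the counting is not given in the sources used here.

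Kl (chromosome 5, 150952607 to 150993817, plus strand) and Clic6 (chromosome 16, 92485736 to 92541243, plus strand) were low but measured in every library, with 36 to 110 and 37 to 136 counts. Kl stood at 0.874, 2.28 and 2.25 CPM in cocaine IP 1, 2 and 3, at 1.90, 2.43 and 2.87 CPM in yoked IP and at 1.26, 2.87 and 1.74 CPM in saline IP. It was 3.05 CPM in the unbound library and 1.97 CPM in the input. Clic6 stood at 0.898, 2.89 and 3.15 CPM in cocaine IP, at 1.24, 2.20 and 3.59 CPM in yoked IP and at 1.61, 3.50 and 2.82 CPM in saline IP, with 2.81 CPM in the unbound library and 3.31 CPM in the input. Both genes were lowest in the library numbered 1 of each treatment, and the treatments overlapped. Clic6 overlaps the sense transcript 2410124H12Rik, which had 0 to 6 counts.

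Igfbp2 (chromosome 1, 72824503 to 72852474, plus strand) had the smallest SD relative to its mean among the 6 genes. It stood at 4.05, 4.08 and 4.71 CPM in cocaine IP, at 2.58, 4.91 and 3.62 CPM in yoked IP and at 2.38, 3.81 and 2.77 CPM in saline IP, from 98 to 208 counts per library over all 11. The unbound library had 5.05 CPM and the input 5.07 CPM. The 3 cocaine IP libraries were all above the 3 saline IP libraries, whereas yoked IP overlapped both; of all 16417 genes tested, 3.11% were above in the same way.

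Levels of different genes were compared per kilobase of annotated exon over the 9 IP libraries (mean ± SD, n = 9). Ttr had 2.31 ± 5.78 CPM per kb, Igfbp2 1.98 ± 0.492, Igf2 1.84 ± 0.786, Clic6 0.622 ± 0.253, Kl 0.220 ± 0.0729 and Folr1 0.0203 ± 0.0282. The first place of Ttr rested on saline IP 2, since without it Ttr averaged 0.385 ± 0.415 CPM per kb (n = 8). By medians the order was Igfbp2 at 2.06, Igf2 at 2.02, Clic6 at 0.721, Kl at 0.241, Ttr at 0.184 and Folr1 at 0.0114 CPM per kb. Igfbp2 and Igf2 did not differ beyond their spread, and neither did Kl and Ttr without saline IP 2.

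Promoter windows are shown for Igf2, Kl and Igfbp2 (GRCm38.p6, 250 bases before to 50 after the RefSeq gene start). They set the growth factor gene, its binding protein and klotho side by side. Folr1 and Clic6 had no entry in the promoter set used, and a Ttr window is not reported here. The capitals mark GC boxes, which read GGGCGG on one strand and therefore CCGCCC on the other. The Igf2 window, 1 of 4 for the gene, is chr7:142666767-142667066 on the minus strand. The Kl window is chr5:150952357-150952656 and the Igfbp2 window, 1 of 2, is chr1:72824230-72824529, both on the plus strand.
Igf2: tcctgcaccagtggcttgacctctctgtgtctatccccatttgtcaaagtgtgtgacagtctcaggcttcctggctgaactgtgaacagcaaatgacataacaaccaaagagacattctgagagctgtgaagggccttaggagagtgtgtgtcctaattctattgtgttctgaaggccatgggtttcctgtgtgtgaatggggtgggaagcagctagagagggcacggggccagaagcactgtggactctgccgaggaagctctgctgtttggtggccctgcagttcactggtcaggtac
Kl: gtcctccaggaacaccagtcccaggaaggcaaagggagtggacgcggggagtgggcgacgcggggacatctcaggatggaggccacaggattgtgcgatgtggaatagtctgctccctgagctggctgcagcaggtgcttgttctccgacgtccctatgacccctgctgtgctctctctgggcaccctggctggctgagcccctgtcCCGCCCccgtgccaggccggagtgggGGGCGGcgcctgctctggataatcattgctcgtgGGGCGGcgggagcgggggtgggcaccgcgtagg
Igfbp2: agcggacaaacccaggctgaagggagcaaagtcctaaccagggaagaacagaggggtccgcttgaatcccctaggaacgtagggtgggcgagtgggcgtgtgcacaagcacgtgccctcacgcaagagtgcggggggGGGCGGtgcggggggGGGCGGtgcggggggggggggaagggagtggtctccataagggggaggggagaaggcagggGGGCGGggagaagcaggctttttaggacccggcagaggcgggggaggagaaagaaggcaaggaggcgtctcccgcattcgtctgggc
The Kl window is 67.3% G and C with 3 GC boxes, the Igfbp2 window 67.0% with 3, and the Igf2 window 52.3% with 0, against a median of 52.7% over 32851 windows, of which 35.7% hold a GC box. Searched on both strands, none of the 3 windows holds the OTX core TAATCC, which is in 7.06% of all windows. None holds the TATA box letters TATAAA, in 13.6% of windows, or the CCAAT box, in 37.4%.

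The high Ttr of saline IP 2 was next set beside a list of 26 other choroid plexus genes, 8 ependymal genes and 22 genes of meningeal and perivascular fibroblasts. The summed choroid plexus list stood at 124 to 143 CPM in cocaine IP, 128 to 143 in yoked IP and 117 to 137 in saline IP, with 131 in the unbound library and 132 in the input. Saline IP 2 had 137 CPM, inside the range of the other IP libraries. Most of that sum came from Enpp2, the autotaxin gene, which other brain cells also express and which averaged 91.9 CPM over the 11 libraries, so the 18 genes with a mean under 1 CPM were also summed; this division was made after their values were seen. Those 18 summed to 3.23, 5.10 and 2.54 CPM in cocaine IP 1, 2 and 3, to 1.74, 4.76 and 4.59 CPM in yoked IP and to 1.63, 3.99 and 3.06 CPM in saline IP, with 5.90 CPM in the unbound library and 4.26 CPM in the input. The unbound library, which has the highest Ttr, thus had the highest sum, while saline IP 2 was below cocaine IP 2, yoked IP 2 and yoked IP 3. As counts they had 133, 175 and 96 counts in cocaine IP 1, 2 and 3, 66, 186 and 152 in yoked IP, and 84, 153 and 116 in saline IP, with 124 in the unbound library and 175 in the input. Ttr counts were 5.25 times this sum in saline IP 2 and 5.09 times in the unbound library, against 0.0197 to 0.385 times in the other 9 libraries. Abca4 and Kcnj13, at means of 0.97 and 0.90 CPM over the 11 libraries, led the 18 genes. Each of the rest averaged 0.32 CPM or less. With so few counts, the sum cannot show whether choroid plexus tissue was present.

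**Figure D2:**
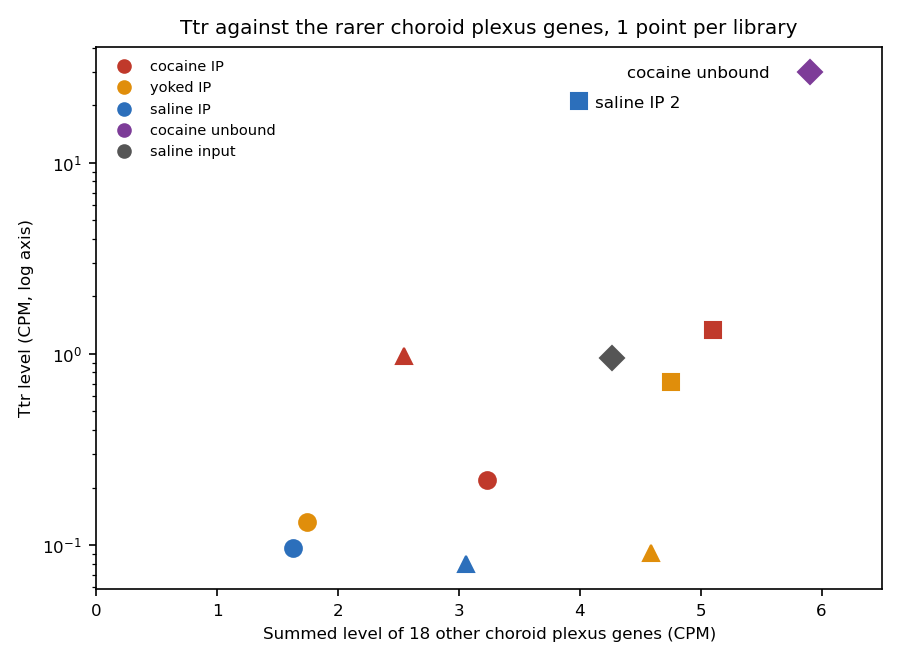
Ttr level (CPM, log axis) against the summed level of 18 rarer choroid plexus genes (CPM) in each library, coloured by group and shaped by replicate number (circle 1, square 2, triangle 3). Saline IP 2 and the unbound library lie at 20.97 and 30.0 CPM of Ttr, with sums of 3.99 and 5.90 CPM, while cocaine IP 2 and yoked IP 2 have sums of 5.10 and 4.76 CPM with 1.34 and 0.716 CPM of Ttr.

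Single choroid plexus genes differed in how their levels went with Ttr. Kcnj13, an epithelial potassium channel, had 17, 42 and 16 counts in cocaine IP, 11, 58 and 48 in yoked IP and 11, 32 and 21 in saline IP. Its highest level was 2.24 CPM in the unbound library, where Ttr was also highest, and the highest of the IP libraries was 1.48 CPM in yoked IP 2, where Ttr was at 28 counts. Slc13a4, a sulfate transporter gene, was likewise highest in the unbound library, at 10.7 CPM, and at 7.75 CPM in saline IP 2, its highest IP library. Kcne2, a potassium channel subunit, had at most 8 counts in any library, Aqp1, the water channel of the apical membrane, at most 11, Cldn2, a tight junction claudin, at most 12, and Slco1a5, an organic anion transporter, 0 in all 11. Otx2, a transcription factor of choroid plexus, had 33 counts in saline IP 1, 21 in cocaine IP 3 and at most 6 in any other library. Of the 26 genes, 5 were highest in saline IP 2 among the 9 IP libraries, namely Trpm3, Slc13a4, Rdh5, Tmem72 and Aqp1. Rdh5, Tmem72 and Aqp1 had at most 19, 13 and 11 counts in any library. The share of all genes highest in saline IP 2 was not computed, so nothing is read from this count. The 8 ependymal genes summed to 6.45 to 8.29 CPM in cocaine IP, 4.56 to 6.88 in yoked IP and 4.73 to 5.83 in saline IP, with 5.43 in saline IP 2. The fibroblast list summed to 395 CPM in saline IP 2, within the 246 to 500 CPM of the IP libraries. Most of such sums came from Ptgds and Nov, at means of 283 and 78.5 CPM in the IP libraries numbered 2 and 3. The sum therefore says little about the rarer fibroblast genes. Beside 804 counts of Ttr in saline IP 2, Folr1 had 1 count and Slco1a5 0, while Aqp1 had 11 counts, its highest of all libraries. Folr1 had only 19 counts over the 11 libraries and Slco1a5 had 0. Their low counts in saline IP 2 therefore cannot show whether choroid plexus tissue was present. The part of other tissue in the level of Ttr was not tested.

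Genes present in 1 IP library far above the rest were rare in general. Taking 1 CPM or more and at least 4-fold above each of the other 8 IP libraries, saline IP 2 had 1 such gene, Ttr, of 13553 genes (0.00738%), cocaine IP 1 had 3 (0.0228%), yoked IP 1 had 1 (0.00762%), yoked IP 3 had 1 (0.00737%), and the other 5 IP libraries had 0. At 3-fold Ttr was still the only one in saline IP 2, and at 2-fold there were 5, among them Sim1, a transcription factor of the hypothalamus. Of the 8 genes whose log2 levels over the 9 IP libraries were most like Ttr among 13449 genes, none was in any list used here. Nxph2, a neurexophilin, led with a Pearson r of 0.88 (Spearman 0.65), followed by Naf1 at 0.88 and Anks6 at 0.85. Without the 2 libraries farthest from the median of Ttr, saline IP 2 and cocaine IP 2, r was 0.61 for Nxph2, 0.82 for Naf1 and 0.24 for Anks6. Naf1 had 12.8 CPM in saline IP 2 and 8.67 CPM in the lowest IP library, a narrow range beside that of Ttr.

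Of the 8 genes most like Igf2, 1 was in any list used here. That gene, Fmod, a small proteoglycan of connective tissue and in the fibroblast list, had r = 0.99 (Spearman 0.93), and 0.96 without saline IP 1 and cocaine IP 1. Cd180, a receptor of microglia and B cells, had 0.99, and Aebp1, a matrix protein, 0.98; the other 5, at 0.98, were E2f4, Paqr3, Zbtb20, Grin2c and Prr5. These likenesses are over 9 libraries that share the difference between replicate numbers. Among the 6 genes themselves, r of log2 levels was 0.84 for Kl with Clic6, 0.80 for Igf2 with Kl and 0.77 for Igf2 with Clic6, while Ttr had 0.37 to 0.50 with each of Igf2, Kl, Clic6 and Igfbp2.

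The treatment contrasts ask whether self-administered or yoked exposure shifts these genes in IP RNA. They were fitted over the 9 IP libraries with edgeR's quasi-likelihood test and Benjamini-Hochberg adjustment over 16417 genes. The background was 0% of genes called in each of the 3 contrasts (0 genes by edgeR and by DESeq2), with 168 genes at an unadjusted p under 0.05 for cocaine against saline, 66 for yoked against saline and 182 for cocaine against yoked. None of the 5 genes tested was called in any contrast, and each contrast shares its samples with another. For cocaine against saline IP, the log2 difference was -3.06 (SE 1.77) for Ttr, -0.18 (SE 0.55) for Igf2, -0.11 (SE 0.44) for Kl, -0.18 (SE 0.54) for Clic6 and 0.54 (SE 0.29) for Igfbp2. The value for Ttr came from saline IP 2: without that library it was 3.20, of the opposite sign. For yoked against saline IP, Ttr had -4.47 (SE 1.93), and 1.79 without saline IP 2, while Igf2 had 0.12, Kl 0.29, Clic6 -0.18 and Igfbp2 0.31. For cocaine against yoked IP, Ttr had 1.41 (SE 1.84), 2.38 with the replicate number as a block and 2.89 without yoked IP 2. Igf2 had -0.30, Kl -0.40, Clic6 0.00 and Igfbp2 0.23 in that contrast.

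No gene of the related lists was called between treatments. The 13 tested choroid plexus genes had a median log2 difference of 0.13 for cocaine against saline IP, beside 0.03 over all genes, with 8 above 0 and 5 below. For yoked against saline IP their median was 0.23, beside 0.00 over all genes, with 13 above 0. For cocaine against yoked IP it was -0.11, beside 0.01. The 22 fibroblast genes had medians of 0.04, 0.11 and -0.09 in the same 3 contrasts, and the 18 tested genes of the insulin-like growth factor system -0.08, 0.05 and -0.15.

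Across replicate numbers, the 5 measured genes other than Folr1 had lower means in libraries numbered 1, and of these Igf2 and Clic6 did not overlap. In the 3 IP libraries numbered 1, Igf2 averaged 5.15 ± 1.67 CPM, against 13.3 ± 2.23 CPM in the 6 numbered 2 and 3 (SD). Clic6 averaged 1.25 ± 0.356 CPM in libraries numbered 1, against 3.02 ± 0.510 CPM in the others, with no overlap in either gene. Kl averaged 1.34 ± 0.517 CPM, against 2.41 ± 0.427 CPM, and Igfbp2 3.01 ± 0.912 CPM, against 3.98 ± 0.779 CPM, with overlap in both. Ttr averaged 0.149 ± 0.0626 CPM, against 4.03 ± 8.31 CPM, and saline IP 3 and yoked IP 3 lay below the lowest library numbered 1. In the fit with treatment as a covariate the log2 differences were -3.36 (SE 1.11) for Ttr, -1.39 (SE 0.19) for Igf2, -1.29 (SE 0.26) for Clic6, -0.88 (SE 0.27) for Kl and -0.42 (SE 0.20) for Igfbp2. Ttr moved to -1.61 without saline IP 2, to -1.94 without saline IP 1 and to -1.74 without cocaine IP 3. Of the 5 genes tested, 4 were lower past the threshold, beside 27.7% of all genes lower and 27.6% higher (55.3% in all), and 2 did not overlap, beside 24.1% of all genes below in the same way. Since the genes were chosen from these values, nothing is read from those counts. Folr1 was at 0, 6 and 8 counts in the cocaine, yoked and saline libraries numbered 1, and at 0 to 2 counts in the other 6.

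**Figure D3:**
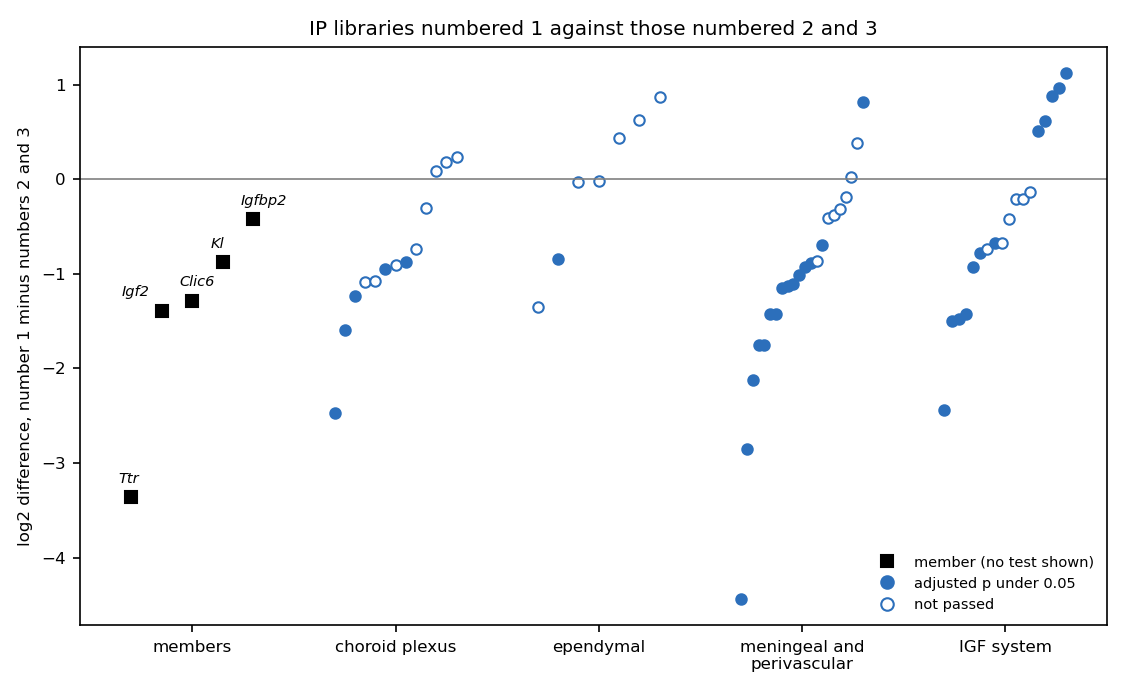
Log2 difference between IP libraries numbered 1 and those numbered 2 and 3 for the 5 tested genes (black squares, no test shown) and the tested genes of 4 related lists, ordered by size within each list. Filled points have an adjusted p under 0.05. Fibroblast genes run from -4.43 (Slc47a1, with 0 or 1 counts in libraries numbered 1) to 0.81 (Nov), and most lie below 0.

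Among genes of the same tissues, 5 of 13 tested choroid plexus genes were lower in libraries numbered 1 and 0 were higher, with a median log2 difference of -0.90, beside 0.01 over all 16417 genes. Of all genes, 27.7% were lower and 27.6% higher, and these shares stand beside the ependymal counts as well. The sulfate transporter gene Slc13a4 averaged 2.92 ± 0.719 CPM in libraries numbered 1, against 6.83 ± 0.604 CPM in the others (log2 -1.24, SE 0.19, edgeR adjusted p = 7.81e-05). Trpm3, a cation channel gene also expressed in neurons, averaged 8.95 ± 2.19 CPM, against 17.0 ± 2.08 CPM (log2 -0.94, SE 0.13, edgeR adjusted p = 4.01e-05). Kcnj13 had a log2 difference of -1.59 (edgeR adjusted p = 0.00802), which was no longer past the threshold without yoked IP 1 (edgeR adjusted p = 0.0655). The secreted peptide gene 1500015O10Rik had -2.47 (edgeR adjusted p = 0.00979), and missed the threshold without saline IP 1 (edgeR adjusted p = 0.0511). It averaged 0.084 CPM in libraries numbered 1, near the 3-count floor, against 0.44 CPM in the others. The fifth was the glucose transporter gene Slc2a12. Enpp2, the most abundant gene of the list, had 0.24 (edgeR adjusted p = 0.0723). Of 7 tested ependymal genes, 1 was lower, Foxj1, the transcription factor of motile cilia, at -0.84 (edgeR adjusted p = 0.00254), and 0 were higher, with a list median of -0.01.

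Of the 22 fibroblast genes, 14 were lower in libraries numbered 1 and 1, Nov, was higher, with a median of -0.97. Over all genes, 27.7% were lower and 27.6% higher. Col1a2, a chain of type I collagen, averaged 0.514 ± 0.285 CPM, against 2.20 ± 0.531 CPM (log2 -2.12, SE 0.36, edgeR adjusted p = 0.000172). Lum, the proteoglycan lumican, had -1.75 (edgeR adjusted p = 0.00640), and Ptgds, which makes prostaglandin D and is also expressed in oligodendrocytes, -1.15 (edgeR adjusted p = 0.000160). Col3a1 had -2.85, with a call lost without saline IP 1 (edgeR adjusted p = 0.113) or cocaine IP 2 (edgeR adjusted p = 0.0568). It averaged 0.059 CPM in libraries numbered 1, near the 3-count floor, against 0.47 CPM in the others. The transporter gene Slc47a1 had 0, 1 and 1 counts in cocaine, yoked and saline IP 1, against 4 to 29 counts in the other 6 IP libraries. The summed list stood at 246 to 350 CPM in libraries numbered 1 and at 344 to 500 CPM in the others. Ptgds and Nov, which went opposite ways, made up most of it. They averaged 130 and 138 CPM in libraries numbered 1, against 283 and 78.5 CPM in the others.

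Of the 18 tested genes of the insulin-like growth factor system, 7 were lower and 5 higher in libraries numbered 1, with a median of -0.54. These counts stand beside 27.7% of all genes lower and 27.6% higher. The ligand gene Igf1 averaged 4.25 ± 1.14 CPM, against 11.3 ± 0.901 CPM (log2 -1.43, edgeR adjusted p = 3.92e-06). The receptor gene Igf1r was lower by the fit, at -0.68, and the adaptor gene Irs1 at -1.50. Igf2r, the receptor that clears the Igf2 protein, was higher at 0.62 (edgeR adjusted p = 0.00107). The binding protein genes were divided, with Igfbp5 lower at -0.78 and Igfbp4 and Igfbp7 higher at 0.51 and 0.96. Igf2bp3, an RNA-binding protein named for its binding of Igf2 RNA, averaged 6.11 ± 2.24 CPM, against 32.2 ± 7.32 CPM (log2 -2.43, SE 0.17, edgeR adjusted p = 4.63e-08). The protease genes went opposite ways, with Pappa2 higher at 0.88 and Pappa lower at -1.48, a call lost without saline IP 1, saline IP 3, cocaine IP 1 or cocaine IP 2.

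The partners of the other genes also held calls between replicate numbers, beside 27.6% of all genes called higher and 27.7% lower. Nothing particular to these short lists is read from their counts. Of 10 tested genes of thyroid hormone and retinol transport and action, 4 were higher and 2 lower, with a median of 0.09. Dio2, the enzyme that activates thyroid hormone, averaged 10.2 ± 2.95 CPM in libraries numbered 1, against 45.3 ± 6.42 CPM (log2 -2.16, edgeR adjusted p = 4.35e-08). Crym, a thyroid hormone-binding protein gene that is also in the layer 5 list, averaged 174 ± 46.4 CPM, against 67.7 ± 3.20 CPM (log2 1.34, edgeR adjusted p = 3.39e-07). Rbp4, whose product rides on transthyretin in plasma, was higher at 0.60, a call lost without cocaine IP 1 (edgeR adjusted p = 0.0868). Of 10 tested folate genes, 2 were higher and 1 lower, with a median of 0.38; the higher ones were the enzyme genes Mthfd1 and Shmt2, at 0.72 and 0.49. Of 4 tested klotho partners, the receptor genes Fgfr2 and Fgfr3 were lower, at -1.32 and -1.28. Of 3 tested Clic genes, Clic4 was lower at -0.45. The part of the layer 5, fibroblast and other marker levels in the difference of the 6 genes between replicate numbers was not tested.

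The fractions set a gene's level in each IP library against that in the unbound or input library. Each IP library was divided by the single unbound or input library of its treatment, and a gene was called where all 3 ratios were at least 2-fold on the same side, which has no replicate of the denominator and gives no p. For cocaine IP 1, 2 and 3 over the unbound library the log2 ratios of Ttr were -6.83, -4.50 and -4.91, with a mean of -5.41 ± 1.24 (SD, n = 3). Those of Igf2 were -3.41, -1.95 and -2.00, with a mean of -2.45 ± 0.83. Both genes were low in all 3 libraries, and they were the 2 of 5 measured genes called lower, beside 2.21% of 13527 genes (299), with 0.399% called higher (54). The ratios were -1.80, -0.48 and -0.48 for Kl, -1.65, -0.03 and 0.11 for Clic6 and -0.38, -0.37 and -0.15 for Igfbp2. The library numbered 1 was the lowest for all 5 genes. The 8 layer 5 marker genes had median log2 ratios of 1.25, 0.47 and 0.42 in the same 3 libraries. Over the input, their medians were 1.13, 0.04 and 0.36 in saline IP 1, 2 and 3. The layer 5 markers thus stood little above the input in saline IP 2. How far these ratios tell RNA on the tagged ribosomes from other RNA was not tested.

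For saline IP 1, 2 and 3 over the input the log2 ratios of Ttr were -2.79, 4.41 and -2.99, on both sides of 0. Those of Igf2 were -1.73, -0.01 and 0.15, those of Kl -0.63, 0.54 and -0.19, those of Clic6 -1.02, 0.09 and -0.24, and those of Igfbp2 -1.08, -0.39 and -0.87. None of the 5 was called, beside 0.0742% of 13478 genes called higher and 0.0445% called lower. The low ratios of Ttr and Igf2 over the unbound library were not found over the input, apart from the libraries numbered 1 and, for Ttr, also saline IP 3. The 2 denominators themselves differed, with 1 library each from different treatments. The unbound library had the library code 912, the input 441 and the cocaine IP libraries 442 to 444. Its index sequence was shared with no other library. Reads ambiguous between genes were 7.34% there, 1.69% in the input and 1.72% to 1.83% in cocaine IP. It held 20926712 gene counts, the fewest of all, against 39901884 in the input. The part of these differences in the ratios over the unbound library was not tested. Unbound over input, the log2 ratio was 4.97 for Ttr, 1.81 for Igf2, 0.69 for Kl, -0.16 for Clic6 and 0.07 for Igfbp2, beside 6.05% of 13738 genes higher by 2-fold or more and 3.45% lower.

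**Figure D4:**
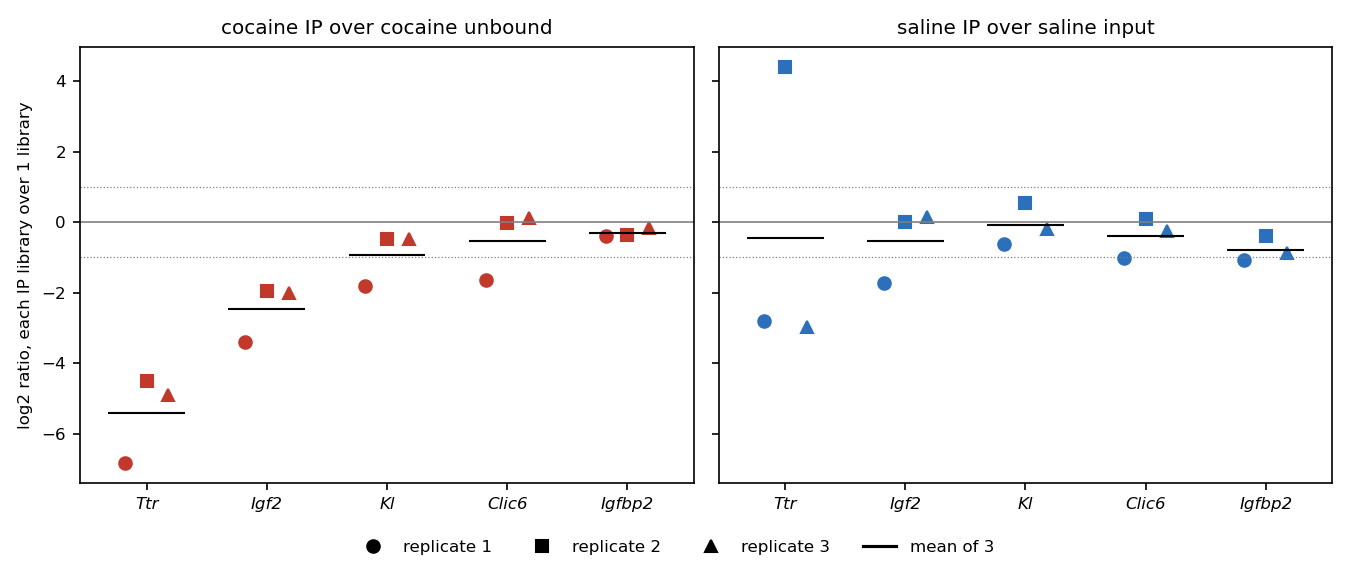
Log2 ratio of each IP library over the single unbound library (cocaine, left) and over the single input library (saline, right) for the 5 measured genes, shaped by replicate number, with bars at means of 3 and dotted lines at 2-fold. On the left Ttr lies between -6.83 and -4.50 and Igf2 between -3.41 and -1.95; on the right Ttr in saline IP 2 lies at 4.41 and the other 2 at -2.79 and -2.99.

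The choroid plexus and fibroblast lists had medians below 0 in cocaine IP over unbound, nearer to 0 than Ttr and Igf2. Both were lowest in cocaine IP 1. In cocaine IP 1, 2 and 3 the choroid plexus medians were -0.91, -0.13 and -0.40. Those of the fibroblast list were -0.83, -0.16 and -0.14. Of 10 measured choroid plexus genes 0 were called in cocaine IP over unbound, with a median of mean ratios of -0.56, beside 0.05 over all genes. Kcnj13 had -2.35, -0.91 and -2.30, short of the rule in 1 library, and the means were -1.28 for Prlr and -1.23 for Slc13a4. Of 17 measured fibroblast genes, with a median of -0.42, 2 were called lower, the proteoglycan genes Bgn, with a mean of -1.99 ± 0.67, and Ogn, with -1.58 ± 0.50. Of 16 measured genes of the insulin-like growth factor system 1 was called lower, Igf1, with a mean of -1.79 ± 0.95. Over the input 0 genes of these 3 lists were called, and Igf1 had -1.54, 0.02 and -0.05.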

How the data were processed

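The authors deposited unnormalized counts per gene for each library. STAR 2.0.0e, HTSeq and the build mm10 are named in the submitters' processing notes; the HTSeq version, annotation and strand setting are not given there. Library sizes exclude the 6 entries without a gene; genes held 44.9% to 52.5% of all entries.

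The 6 genes, the lists and the rules were chosen with earlier results of these data known. The 9 IP libraries entered 1 edgeR 4.0.16 model (R 4.3.3) of 3 treatment means (TMM, filterByExpr, robust quasi-likelihood, Benjamini-Hochberg, threshold 0.05); SE is the log2 difference over the square root of F. For replicate numbers, number 1 was set against the mean of 2 and 3 with treatment as a covariate. Fraction ratios used TMM over 4 libraries, a prior count of 2 and a mean of at least 1 CPM. Likeness used log2 CPM with 0.5 added. Named list genes were up to 4 called genes per list by size of difference, and otherwise the most abundant; further ones were named for their roles after their values were seen, and some are not reported here. DESeq2 1.42.0 was an alternative.

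Same-numbered IP libraries deviated together (r 0.475 to 0.858 in 9 pairs), against -0.80 to 0.70 in 18 differently numbered pairs. All negative r were between a library numbered 1 and one numbered 2 or 3. Pairs of a number 2 with a number 3 had r of 0.43 to 0.70, much like same-numbered pairs of 2 or of 3 (0.475 to 0.703). The values thus set number 1 apart and do not show that numbers 2 and 3 pair the samples. P-values measure only the spread between libraries, which may be technical; counts without molecular identifiers include PCR copies, and the 3-count floor covers counting error only. Gene positions and exon lengths are from GENCODE M21 (GRCm38).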

Additional observations from a re-analysis of the deposited data

How the results depend on the processing

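The 3 treatment contrasts had 0 genes called under every alternative run: DESeq2 size factors, no expression filter, DESeq2's Wald test, only the 2 groups compared, the replicate block, each library left out, and, chosen after seeing the data, without all libraries numbered 1. With the replicate block the count was 0 in each, and no other call changed. The replicate number contrast called 7837 to 8774 genes with 1 library left out. The fraction counts moved. With a mean of at least 0.1 CPM, cocaine IP over unbound had 142 genes higher and 834 lower, and saline IP over input 124 and 139; more genes enter at that level. With 1 IP library left out, cocaine IP over unbound had 123 to 239 higher and 305 to 459 lower, and saline IP over input 16 to 27 higher and 10 to 41 lower, since 2 libraries rather than 3 must pass. Among differences of the 6 genes, 7 values moved by more than the SD between libraries and 277 did not; all 7 are of Ttr. Without Rn45s in the library size, Ttr and Igf2 stood at 33.5 and 49.8 CPM in the unbound library. Of the named list genes, 10 calls were lost with a library left out and 266 held. Ttr, Folr1 and the rarer choroid plexus genes are limited by depth: at most 46 counts of Ttr in 8 of 9 IP libraries.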

Other observations

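Markers of other tissues were present at different levels. The 8 thalamus genes summed to 94.3 to 120 CPM and the 7 hippocampus genes to 23.1 to 38.8 CPM in the IP libraries; other neurons can express genes of both lists. The 8 pituitary genes summed to 0.756 to 1.72 CPM, with 3 of the 8 at 0 in all 11, the 7 hypothalamic peptide genes to 1.96 to 4.64 CPM and the 6 cerebellar genes to 9.73 to 15.1 CPM. The blood list, of which 4 of 7 genes have a row, summed to 1.40 to 6.91 CPM in the IP libraries, against 10.8 CPM in the unbound library and 8.18 CPM in the input.

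A few other transcripts stood above the rest in 1 IP library, some only narrowly. They were named after their values were seen. The calcium-binding protein gene Scgn had 45 counts in cocaine IP 3 and 0 to 18 in the other 10 libraries. Slc10a4, a transporter of monoamine and cholinergic neurons, had 55 counts there and 10 to 29 elsewhere, and Th, the tyrosine hydroxylase gene, had 74 there and 22 to 58 elsewhere. In CPM, Th was 1.96 there, 1.29 in yoked IP 1 and 1.41 in the input. At 1 CPM or more and 1.5-fold above every other IP library, cocaine IP 3 had 8 genes, Scgn, Slc10a4 and Th among them. By the same rule cocaine IP 1 had 1199. Cckar, a cholecystokinin receptor gene, had 38 counts in yoked IP 3 and 0 to 9 elsewhere. Sim1 stood at 1.64 CPM in saline IP 2, the library with high Ttr, at 0.0971 to 0.788 CPM in the other IP libraries and at 1.14 CPM in the unbound library.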
